A study of Mus musculus with 35 samples.

Results

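The lower and the upper side population (LSP and USP) of mouse bone marrow were compared in 6 ten-cell samples, LSP samples A, B and M against USP samples N, O and Z, which gave 12 of the 35 arrays and 6 of the 26 samples of the series. The members were taken from the sample labels alone: every ten-cell array labelled as lower SP or upper SP was used. Both populations were sorted from mice labelled C57Bl/6, which the methods call C57Bl/6 CD45.1, as cells that exclude the dye Hoechst, carry Sca-1 and lack Gr-1, with LSP cells gated at the lower end of the SP tail and USP cells at its upper end. The gates did not overlap, and per the methods the USP gate stopped short of the shoulder of the tail. The labels call the LSP donors male and give no sex for the USP donors, and the methods give mice of 7 to 9 weeks and 1 mouse per sort. Each sample was a pool of 4 amplifications of 10 cells, and the pooled material was hybridised to 2 Affymetrix MG-U74Av2 arrays. The labels do not say which pools share a mouse, so the p-values below measure the spread between these pools. The 3 CD8 samples, CD3 and CD8 positive T lymphocytes from bone marrow of male mice labelled C57Bl/6, were used to estimate the spread and as a reference level.

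The side population is the small set of marrow cells that pumps out Hoechst, mainly through the transporter Abcg2, and it holds most of the long-term blood-forming stem cells of the mouse. Cells at the lower tip pump the most dye and are known for the strongest long-term repopulation, whereas cells higher up the tail lie nearer to the progenitors that divide and feed the blood lineages. Stem cells at rest are mostly outside the cell cycle, and entry into S phase needs the E2F factors, which switch on replication genes, and the kinases Cdc7 and Cdk2, which fire the origins loaded with the Mcm helicase.

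A level is the log2 of the deposited signal intensity, with every value below 7 set to 7, and the levels of the 2 arrays of a sample were averaged. This floor of 7 is a fixed cut-off and no call of detection, so a gene at the floor may still be expressed. Between 3620 and 4228 of 12422 probe sets were above the floor in an LSP sample and between 3631 and 3871 in a USP sample, so the populations overlapped (mean difference 196.3 probe sets, exact permutation test, 2-sided, p = 0.50; with 3 against 3 samples the test cannot go below 0.10). Surface proteins of stem cells were present in both, with 16 to 19 of 29 probe sets above the floor in an LSP and 16 to 18 in a USP sample. Adgrg1, an adhesion receptor of stem cells, had levels of 10.89, 11.13 and 11.91 in the LSP and 10.95, 10.96 and 11.49 in the USP samples and lay at the floor in CD8 cells. Kit, the stem cell factor receptor, and Runx1 were at the floor on all LSP, USP and CD8 arrays, so neither checks the sort. On 9 of the 12 SP arrays part of the deposited values are negative, and the exceptions are the second array of LSP sample B and both arrays of USP sample Z. The 6 CD8 arrays hold no negative values.

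Samples of 1 population lay about as far apart as samples of different populations. For 2 LSP samples, 865 to 1042 probe sets were more than 4-fold apart (3 pairs, median 1027), and for 2 USP samples 853 to 999 (3 pairs, median 954). Between an LSP and a USP sample the number was 781 to 1137 (9 pairs, median 955). For duplicate arrays of 1 sample the number was 1 to 90. The closest pair of all was LSP sample A with USP sample O, and the 3 largest distances all involved LSP sample M. The pairs share samples and were not tested.

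**Figure D1:**
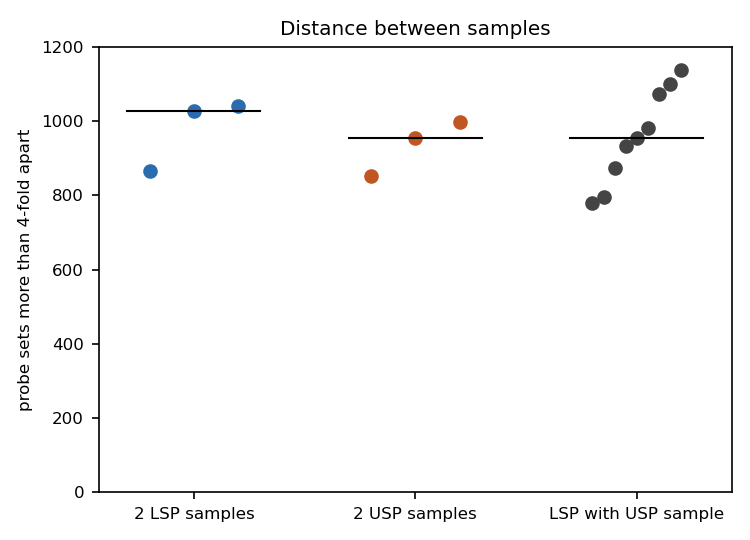
Number of probe sets more than 4-fold apart (y axis) for each pair of samples (points) within LSP, within USP and between them, with the median as a line. The pairs between populations, from 781 to 1137, cover the range of the pairs within a population.

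Few probe sets separated LSP from USP beyond the spread shared by the LSP, USP and CD8 pools. In the limma fit over 6823 probe sets, 7 passed an adjusted p of 0.05, of which 2 (0.0293% of those tested) had the higher level in LSP and 5 (0.0733%) in USP. An unadjusted p under 0.05 was found for 217 probe sets on the LSP side (3.18%) and 192 on the USP side (2.81%). Below, a probe set of a gene list is counted for LSP or for USP when it lies on that side with an unadjusted p under 0.05, and these percentages are the background of the counts. Several lists hold genes that the study named from these same samples, and their counts are no independent evidence of a direction. In 211 probe sets every LSP sample was above every USP sample (3.09%) and in 197 every USP sample was above every LSP sample (2.89%). In 52 probe sets all LSP samples were above and all USP samples at the floor, and in 35 the reverse. The median difference over all probe sets tested was 0.0, with 3359 means higher in LSP and 2961 higher in USP. A further 503 of the 6823 were at the floor in all 6 SP samples and were tested only because a CD8 array left the floor. They could show no difference, and they are included in this median, in the background percentages and in the numbers tested of the lists.

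**Figure D2:**
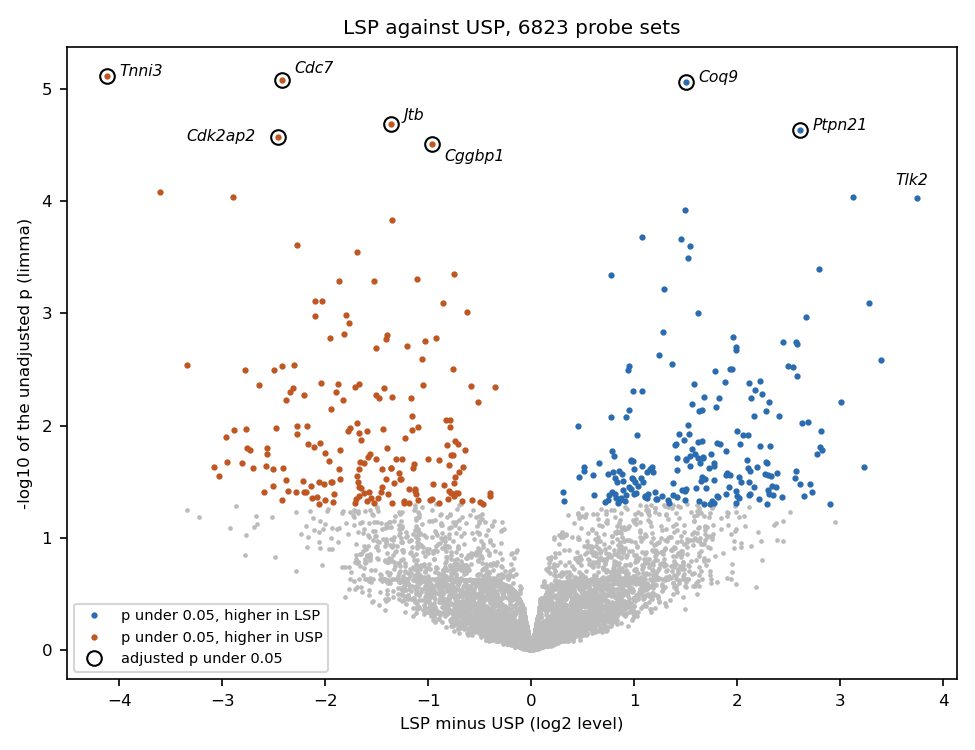
LSP minus USP log2 level (x axis) against the -log10 of the unadjusted p from limma (y axis) for 6823 probe sets, 1 point each. Coloured points have p under 0.05 and the 7 circled points have an adjusted p under 0.05, namely Coq9 and Ptpn21 on the LSP side and Tnni3, Cdc7, Cdk2ap2, Jtb and Cggbp1 on the USP side.

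The 2 genes that passed on the LSP side were Ptpn21 and Coq9. Ptpn21 encodes a tyrosine phosphatase that binds membranes and the cytoskeleton. Its level was 9.64, 9.84 and 10.24 in LSP samples A, B and M and 7.03, 7.67 and 7.19 in USP samples N, O and Z. The LSP mean of 9.91 ± 0.30 (SD, n = 3) was 6.09-fold above the USP mean of 7.30 ± 0.33 (log2 difference 2.61, 95% interval 1.99 to 3.23, adjusted p = 0.0304), and the CD8 samples lay at 7.21 ± 0.36. Coq9, a mitochondrial factor needed to make coenzyme Q, had levels of 8.67, 8.67 and 8.29 in LSP and 7, 7.12 and 7 in USP, a 2.84-fold difference (log2 difference 1.5, interval 1.20 to 1.81, adjusted p = 0.0197). With most USP arrays at the floor this fold depends on where the floor is set, and over the settings tried the log2 difference of Coq9 ran from 0.55 to 2.23. Both genes were above the floor in all LSP samples, whereas Coq9 left the floor in USP sample O alone, on 1 of its 2 arrays.

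The largest difference on the LSP side was that of Tlk2, a kinase that acts on the histone chaperone Asf1 during S phase. Its level was 11.22, 9.95 and 11.49 in LSP and 7, 7.06 and 7.39 in USP, so the groups were far apart, but the LSP samples spread more than those of Ptpn21. The difference was 3.74 on the log2 scale (13.4-fold, interval 2.63 to 4.84) and missed the threshold with an adjusted p of 0.0581. CD8 cells also had Tlk2, at 9.71 ± 0.62 (SD, n = 3). The other Tlk2 probe set was at the floor on all arrays, so the result rests on 1 probe set.

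On the USP side Tnni3 had the largest difference of all. It encodes cardiac troponin I, a protein of the heart muscle filament with no textbook role in blood. Its level was 10.93, 11.32 and 12.20 in USP and 7.83, 7 and 7.26 in LSP, with all CD8 samples at the floor. The USP mean was 17.4-fold higher (log2 difference -4.12 for LSP minus USP, interval -4.95 to -3.29, adjusted p = 0.0197). Of 12 tested probe sets of sarcomere and heart muscle genes, Tnni3 was the only one counted on either side, and the list's median difference was 0.008.

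Cdc7, the kinase that starts replication at licensed origins, was at the floor in all 3 LSP samples, on all 6 arrays, and had levels of 9.81, 9.52 and 8.94 in USP. Its USP mean lay at least 5.36-fold above the floor (log2 difference -2.42, interval -2.92 to -1.93, adjusted p = 0.0197), and all CD8 samples were at the floor. Over the settings tried the log2 difference ran from -3.42 to -1.42. Its partner Dbf4 was at the floor on all arrays. Cdk2ap2, a small protein of the family that binds Cdk2, had levels of 7, 7 and 7.21 in LSP and 10.04, 9.46 and 9.08 in USP, 5.49-fold higher on this scale (adjusted p = 0.0304), and CD8 cells had it at 9.85 ± 0.22 (SD, n = 3). As LSP left the floor on 1 array of sample M alone, this fold too depends on the floor, and the log2 difference ran from -3.23 to -1.53 over the settings tried. Its relative Cdk2ap1 had levels from 10.42 to 11.11 in LSP and from 10.71 to 11.19 in USP.

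The last 2 genes that passed were measured above the floor in all SP samples, with small and even differences. Jtb, a transmembrane protein that takes part in cell division, had levels of 8.95, 8.69 and 8.66 in LSP and 10.19, 10.04 and 10.16 in USP, 2.58-fold higher (log2 difference -1.37, interval -1.68 to -1.05, adjusted p = 0.0304), with CD8 cells at 10.06. Cggbp1, which binds CGG repeats in DNA, had 9.07, 8.83 and 9.03 in LSP and 9.86, 9.99 and 9.98 in USP, 1.95-fold higher (log2 difference -0.97, adjusted p = 0.0304). The other 2 tested probe sets of Cggbp1 did not show this, with differences of 0.88 and 0.01.

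**Figure D3:**
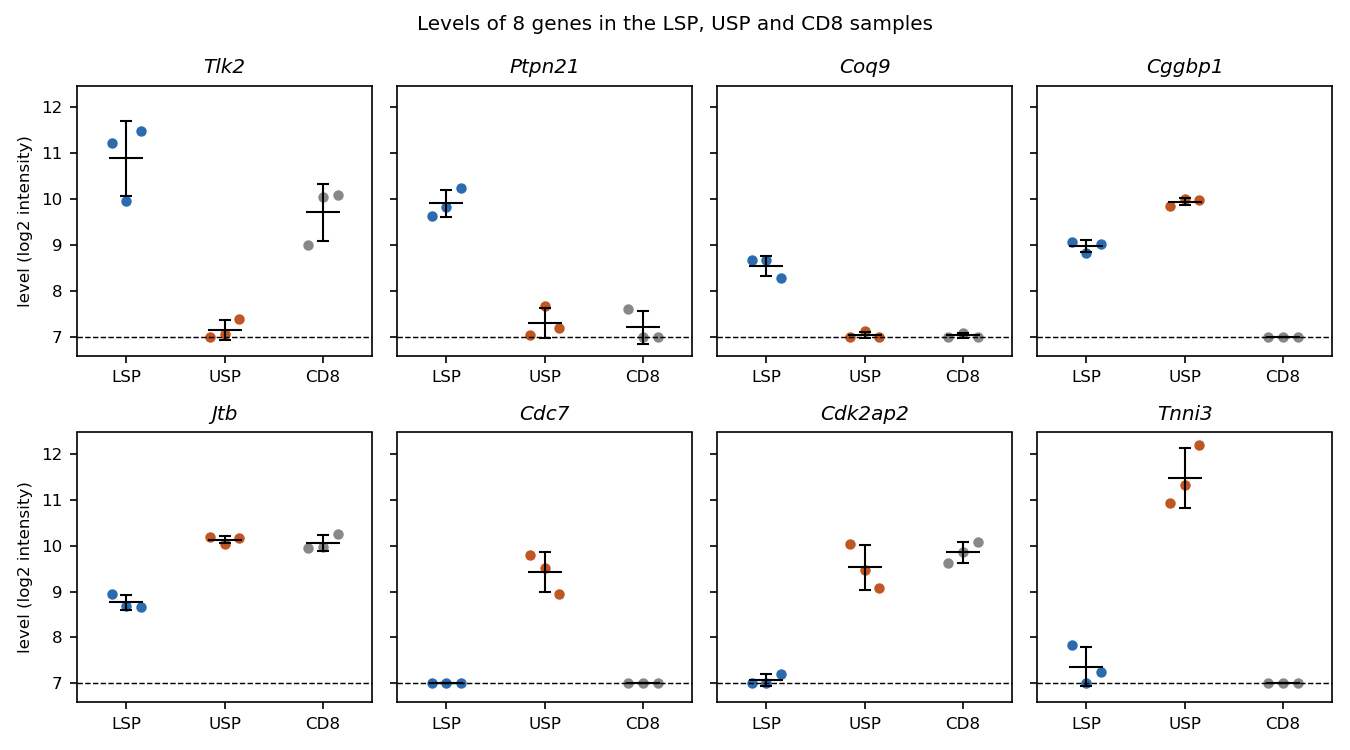
Level (y axis, log2 intensity, floor of 7 as a dashed line) of the 7 genes that passed the test and of Tlk2 in the 3 LSP, 3 USP and 3 CD8 samples; points are samples, and black bars the mean and SD. In every panel the LSP points lie wholly above or wholly below the USP points, from a gap of under 1 log2 unit for Cggbp1 to over 3 for Tnni3.

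These calls depended on which samples entered the estimate of the spread. All CD8 samples lay at the floor for Tnni3, Cdc7 and this Cggbp1 probe set (SD 0), as did all LSP samples for Cdc7 (SD 0). For Coq9 the USP samples (SD 0.07) and the CD8 samples (7.03, SD 0.048) lay at or near the floor. Such values lower the estimated spread and narrow the intervals of these genes. In a fit without the CD8 samples none of the 7 passed, and their adjusted p lay between 0.210 and 0.311. The arrays with negative values alone leave out USP sample Z and all CD8 samples. In them the differences stayed between -3.76 for Tnni3 and 2.60 for Ptpn21 with the same signs, but none passed. Over 18 arrays with the sample as a random effect, Tnni3, Cdc7, Cdk2ap2 and Ptpn21 passed, and so did Tlk2 (adjusted p = 2.7e-04), whereas Jtb, Coq9 and Cggbp1 did not.

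The 12 single SP cells of the series were sorted from the lowest tip, and their arrays give a side view of the same genes, scaled separately and not tested against the pools. A level above 9, at which a gene was counted as detected in a single cell, was reached by Tlk2 in 1, Ptpn21 in 1 and Coq9 in 2 of 12 cells. Of the genes higher in USP, Cdc7 reached it in 0 and Cggbp1 in 1 cell, Tnni3 in 2, and Jtb and Cdk2ap2 in 6 each. The median was 1 cell over all probe sets tested, and 2 cells over the 217 on the LSP side and over the 192 on the USP side. The level of 9 is stricter than the floor of 7 used for the pools. Coq9 and Jtb were below 9 in every LSP pool, so a low count of cells for them is no sign of absence.

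Of the 4 cell cycle lists, that of replication genes had the most probe sets counted on 1 side, and also the most probe sets tested. Of 37 tested probe sets, 0 were counted for LSP and 4 for USP (10.8% against 2.81% of all), of which Cdc7 passed after adjustment, and the median was -0.084. Without USP sample Z the count for USP was 7, and without LSP sample B it was 6, beside 2 for LSP. Mcm3, a subunit of the helicase, had levels of 7.16, 7.99 and 7 in LSP and 9.05, 8.72 and 9.84 in USP (log2 difference -1.82, adjusted p = 0.267), and its other probe set differed by -0.79 and overlapped. Umps, the enzyme that ends the synthesis of uridine monophosphate, had 7.16, 7.05 and 7.19 against 10.96, 11.64 and 8.81 (10.1-fold, adjusted p = 0.324), and Rfc2, a subunit of the clamp loader, 10.13, 9.58 and 7 against 12.05, 11.19 and 10.09 (adjusted p = 0.816). With these probe sets every USP sample was above every LSP sample for Mcm3 and Umps, whereas for Rfc2 they overlapped. The second tested probe set of Umps stayed at or near the floor. Over the list the mean was higher in LSP for 14 and in USP for 21 probe sets. Mcm2 differed by 0.35, Mcm5 by -0.87, Mcm7 by -0.12, Pcna by -0.73 and the ribonucleotide reductase subunit Rrm1 by 1.25.

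E2f1, the factor that opens S phase, was at the floor in all LSP samples with both of its probe sets. In USP it had levels of 9.17, 8.72 and 7.55 with the first and 7.31, 7.85 and 7.60 with the second, at least 2.79-fold and 1.5-fold higher (adjusted p = 0.403 and 0.379). Of the 16 tested probe sets of E2F, Rb and CDK inhibitor genes, these 2 were counted for USP (12.5%) and 1 for LSP (6.25%), and the median was -0.491. This USP share was the highest of the 4 cell cycle lists. Without USP sample Z the count for USP was 4. The one on the LSP side was Cdkn1a, the CDK inhibitor p21, with 7.59, 9.65 and 7.93 against 7.12, 7.42 and 7 (adjusted p = 0.826). A second probe set of Cdkn1a differed the other way, by -0.64. Tfdp1, the partner of E2F proteins, differed by -0.84 and -0.72 with its 2 probe sets and Rb1 by -0.69 and -0.13, and their samples overlapped.

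Among 25 tested probe sets of cyclins and their kinases, 2 were counted for USP (8%), Cdk2ap2 and Ccna2, and 0 for LSP (median -0.012). Ccna2, the cyclin of S phase, had levels of 7, 7.09 and 7 in LSP and 10.38, 7.97 and 9.69 in USP (4.97-fold, adjusted p = 0.383), and 9.41 in CD8 cells. Of 27 probe sets of mitosis and proliferation genes, 1 was counted on each side, and the median of -0.511 was the lowest of the 40 lists, with 6 means higher in LSP and 20 in USP. On the LSP side it was Nek6, a mitotic kinase, with 9.42, 8.08 and 9.83 against 7, 7 and 7.37 (adjusted p = 0.284). Mki67, the usual marker of dividing cells, cut across the populations with the brighter of its 2 probe sets, at 11.53, 7 and 7.77 in LSP samples A, B and M and 11.48, 11.49 and 7 in USP samples N, O and Z. Several mitotic genes were above the floor in USP sample O alone, among them Cdc20, which releases cells from metaphase, at 10.12 and Ect2, which drives cytokinesis, at 9.47. Without USP sample Z, 6 probe sets of this list were counted for USP, and without sample O none.

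Cdc7, E2f1 and Mcm3 are shown here with a window around an annotated start of transcription each. They were taken because every USP sample was above every LSP sample. This held with the probe set of Cdc7, both of E2f1 and 1 of the 2 of Mcm3. The RefSeq windows run from 250 bases before to 50 after the start of transcription in build GRCm38.p6. The letters searched on both strands were TTTGGCGC, TTTCGCGC, TTTGCCGC and TTTCCCGC for E2F, GGGCGG for the GC box and CCAAT for the CCAAT box, and capitals mark the matches. Cdc7 has 2 windows, of which that of the upstream start, chr5:106964072-106964371 on the plus strand, is given.
Cdc7: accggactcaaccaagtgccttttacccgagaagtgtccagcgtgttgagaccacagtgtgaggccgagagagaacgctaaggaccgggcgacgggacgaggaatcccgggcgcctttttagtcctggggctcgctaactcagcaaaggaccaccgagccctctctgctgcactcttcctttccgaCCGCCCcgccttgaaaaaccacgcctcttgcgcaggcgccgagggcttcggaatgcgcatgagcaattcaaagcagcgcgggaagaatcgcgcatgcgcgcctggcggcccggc
E2f1, chr2:154569377-154569676 on the minus strand: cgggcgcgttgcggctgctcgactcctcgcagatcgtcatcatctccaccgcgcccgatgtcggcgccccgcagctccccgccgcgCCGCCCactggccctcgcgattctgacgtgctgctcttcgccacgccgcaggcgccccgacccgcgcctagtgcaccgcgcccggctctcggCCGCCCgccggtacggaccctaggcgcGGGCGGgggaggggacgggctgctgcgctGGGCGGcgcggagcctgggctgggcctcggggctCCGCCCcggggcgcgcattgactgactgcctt
Mcm3, chr1:20820263-20820562 on the minus strand: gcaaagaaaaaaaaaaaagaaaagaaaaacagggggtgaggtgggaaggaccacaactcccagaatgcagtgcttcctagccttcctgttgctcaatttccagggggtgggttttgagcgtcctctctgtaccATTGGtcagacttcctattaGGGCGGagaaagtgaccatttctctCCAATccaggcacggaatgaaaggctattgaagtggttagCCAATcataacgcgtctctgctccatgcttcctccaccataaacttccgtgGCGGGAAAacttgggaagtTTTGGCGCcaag
The E2F letters were found in the Mcm3 window, at 2 places, and in none of the other windows shown, against 2.26% of 32851 promoters. The E2f1 window holds coding sequence of the gene, so it belongs to a downstream start. Sequence upstream of that window was not searched, so the result does not cover the whole E2f1 promoter. GC box letters were found 1, 5 and 1 times in Cdc7, E2f1 and Mcm3 (35.7% of all promoters hold them), and CCAAT 3 times in Mcm3 (37.4%). These matches describe the letters of the windows and say nothing of binding.

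Of 32 tested probe sets of apoptosis genes 0 were counted for LSP and 4 for USP (12.5%), the median was -0.104, and none passed after adjustment. Casp4, an inflammatory caspase, had levels of 7, 7.28 and 9.54 in LSP and 11.41, 11.62 and 9.08 in USP (adjusted p = 0.660), overlapping in samples M and Z. Bcl2l11, which encodes the killer protein Bim, had 7, 7 and 7.38 against 8.11, 7.55 and 8.75 (adjusted p = 0.707). Casp6 differed by -1.31 and Apaf1, the core of the apoptosome, by -0.47. Without LSP sample B no probe set of the list was counted for USP.

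Of 24 tested probe sets of granulocyte and monocyte genes, 3 were counted for USP (12.5%) and 1 for LSP, with a median of -0.448. S100a9, a calcium-binding protein of neutrophils, had 7, 7 and 8.18 in LSP and 9.72, 9.52 and 9.23 in USP (4.27-fold, adjusted p = 0.184). Cd14, the monocyte receptor for bacterial lipopolysaccharide, had 8.32, 8.36 and 7.17 against 9.0, 9.16 and 10.64 (adjusted p = 0.628). Cebpd, a myeloid transcription factor, differed by -1.37 and overlapped. Cebpg, a factor of the same family, went the other way, at 8.29, 9.78 and 10.57 in LSP and at the floor in all USP samples (adjusted p = 0.324).

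The granule genes of maturing neutrophils set USP sample O apart. Camp and Ltf were at the floor in the other 5 SP samples and at 10.91 and 9.81 in sample O. Ngp was at 10.62 in O and 7.47 in N, and Lcn2 at 12.74 in O and 9.25 in N. The sort required cells to lack Gr-1, the antigen of granulocytes. Over the 48 probe sets of the list, 12 to 16 were above the floor in a USP sample and 10 to 14 in an LSP sample. Their summed intensity above the floor was 8275 to 20872 in USP, highest in sample O, and 2668 to 10482 in LSP, highest in sample M. Without sample O, 2 probe sets of the list were counted for USP, and without sample Z 5. Whether a mature myeloid cell entered that pool was not tested, and more cells of a type cannot be told apart from more RNA per cell.

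Of 13 tested probe sets of erythroid genes, 1 was counted for USP (7.69%), Hba-a1, and 0 for LSP, with a median of 0.0. The count for USP was 0 without LSP sample A, LSP sample B or USP sample N, and 2 without CD8 sample B. Hba-a1, a chain of hemoglobin, had levels of 7, 7.97 and 8.75 in LSP and 11.27, 10.94 and 10.74 in USP (8.43-fold, adjusted p = 0.716). Hbb-b2 had 7.70, 8.62 and 8.26 against 9.15, 9.15 and 9.58 (adjusted p = 0.876), and a probe set shared by 4 beta globin genes had 9.81 ± 0.69 (SD, n = 3) against 11.08 ± 0.19. In these 3 every USP sample was above every LSP sample, whereas with a probe set shared by both alpha globin genes, whose means were 7.45 in LSP and 8.21 in USP, LSP sample M, at 8.36, was above all USP samples. The CD8 samples varied in Hba-a1 by more than the SP samples did, with a mean of 8.29 ± 2.24 (SD, n = 3), and this spread enters the test. Gata1, the erythroid master factor, was above the floor in USP sample N alone, at 9.68, with 1 probe set, and at most at 7.82 with the other. Of the 27 erythroid probe sets, 6 were above the floor in each LSP sample and 4 to 7 in a USP sample.

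Of 11 tested megakaryocyte and platelet probe sets, 2 were counted for USP (18.2%) and 0 for LSP, with a median of -0.307. Both, Vwf and Pafah2, are also in the study's upper SP list, which was drawn from these samples, so the count is not independent evidence of a direction. Vwf, which encodes von Willebrand factor, was at the floor in all LSP samples and had 7.76, 8.47 and 8.97 in USP (at least 2.64-fold, adjusted p = 0.267). Pafah2, an intracellular enzyme that degrades platelet-activating factor and is no platelet marker, was likewise at the floor in LSP and had 9.27, 8.97 and 7.89 in USP (adjusted p = 0.379). Vwf and Pafah2 each rest on 1 of 2 probe sets, the other being at the floor on all ten-cell arrays. A probe set that detects Gp1bb, a platelet receptor chain, together with the neighbouring Septin5 had 7 in all LSP samples and 10.60 ± 0.99 (SD, n = 3) in USP (adjusted p = 0.0581), but the probe set assigned to Gp1bb alone differed by -0.31. Nfe2 was high in both populations, at 11.23, 11.53 and 11.66 against 11.59, 11.54 and 11.62. B-lineage, T and NK, and endothelial and stromal lists had 20, 25 and 19 probe sets tested. Of these, 1, 1 and 0 were counted for LSP (5%, 4% and 0%) and 0, 0 and 1 for USP (0%, 0% and 5.26%). Beside 3.18% and 2.81% of all, a single probe set in lists of this size gives no direction. The B-lineage one was Ptprcap, which lymphocytes and other white cells share, and the T one Gata3, at 10.22, 8.10 and 9.01 in LSP and 7.24, 7 and 7.42 in USP.

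Of 24 tested probe sets of stem cell surface proteins, 0 were counted for LSP and 1 for USP, Flt3, with a median of 0.027. Flt3, a receptor tyrosine kinase gained as stem cells become progenitors, had levels of 8.77, 7 and 7.89 in LSP and 8.92, 9.70 and 10.13 in USP (3.24-fold, adjusted p = 0.545), and its other probe set differed by -0.27. Cxcr4, the receptor that holds stem cells in the marrow, had 10.70, 11.13 and 12.08 against 11.06, 10.50 and 10.90. Procr, the receptor for activated protein C, had 8.62, 10.19 and 9.37 against 8.43, 9.95 and 10.42, and Emcn, endomucin, 11.31, 11.09 and 11.87 against 10.50, 11.44 and 10.26. For each of these 3 the samples of the 2 populations overlapped.

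Abcg2, the dye pump, was present in both gates. It had levels of 9.70, 10.13 and 11.24 in LSP and 9.59, 10.10 and 11.67 in USP (log2 difference -0.10, 95% interval -2.02 to 1.83), with no order between the populations. Of 16 tested probe sets of ABC transporters, 1 was counted for USP, Tap1, which carries peptides for MHC class I, with 9.59, 9.48 and 9.50 in LSP and 10.39, 10.24 and 11.04 in USP (2.05-fold, adjusted p = 0.269). Tapbp, the protein that ties Tap1 to MHC class I, differed by -0.89 (adjusted p = 0.709) with 1 of its 3 probe sets. Among 22 probe sets of cytokine receptors Flt3 was again the only one counted.

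Of 24 tested probe sets of stem cell transcription factors, 1 was counted for LSP and 0 for USP (median 0.053). It was Zfx, an X-linked factor of stem cell renewal, with 9.44, 9.52 and 9.19 in LSP and 8.58, 7.28 and 7.34 in USP (3.15-fold, adjusted p = 0.633). The sex of the USP donors is not given, and the Y-linked Eif2s3y was above the floor in LSP samples A and B and in USP samples N and Z. Lyl1 had 9.80, 8.61 and 7 against 10.74, 10.72 and 10.40 with 1 probe set and 12.66, 10.81 and 11.61 against 12.89, 13 and 13.05 with the other, so that every USP sample was above every LSP sample with both (adjusted p = 0.840 and 0.885). Tal1 had 9.32, 9.18 and 10.40 against 8.91, 8.11 and 10.07, with the populations overlapping.

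**Figure D4:**
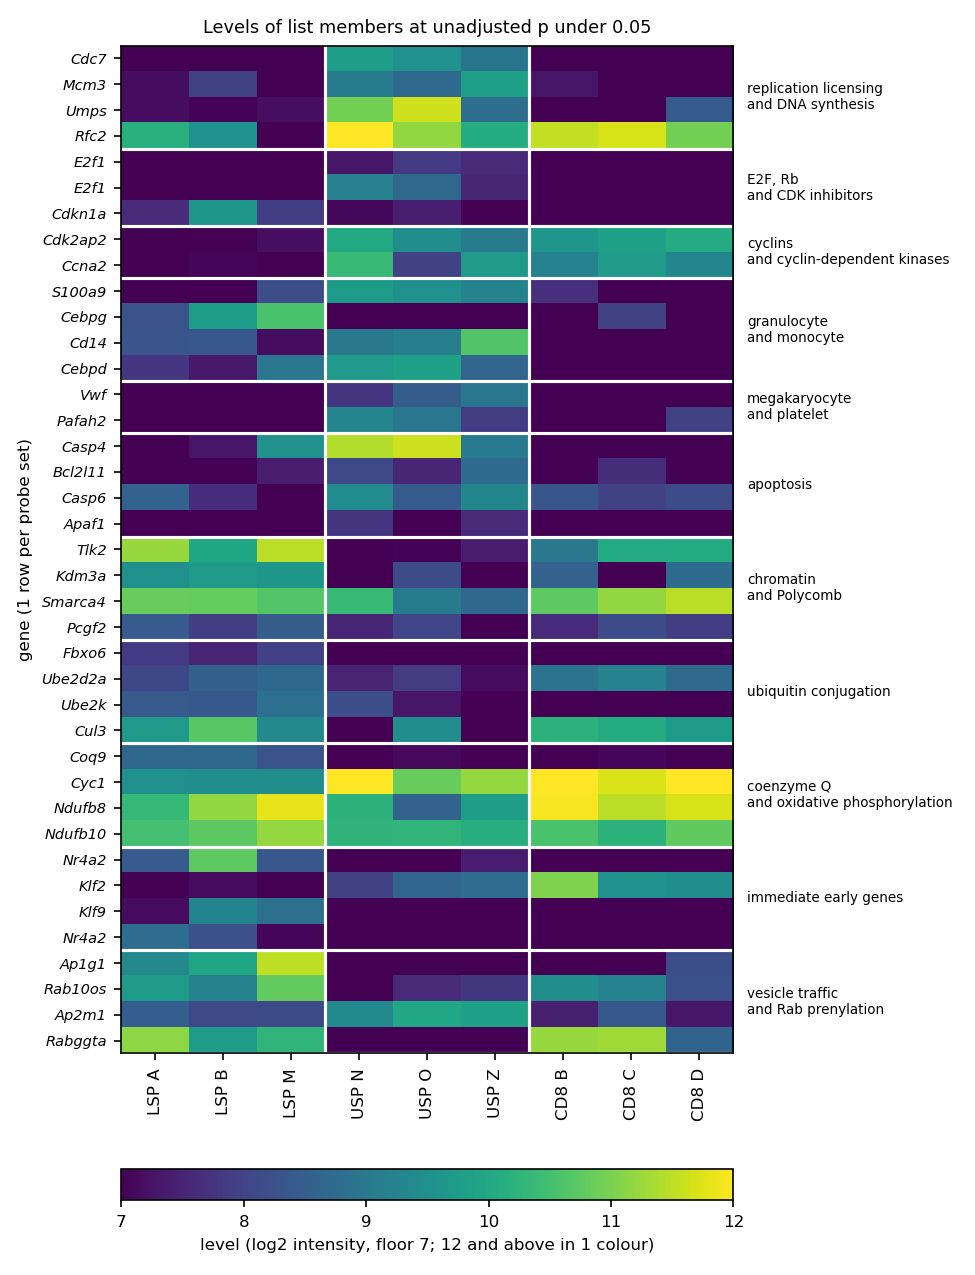
Level (colour, log2 intensity from the floor of 7 upward) in each LSP, USP and CD8 sample (columns) of the genes in 11 lists that had an unadjusted p under 0.05, at most 4 probe sets a list (rows, grouped by list). Upper blocks (replication to apoptosis) are mostly brighter in USP, Cebpg and Cdkn1a excepted, and lower blocks (chromatin to vesicle traffic) mostly brighter in LSP, with Cyc1, Klf2 and Ap2m1 excepted. The 11 lists were picked and ordered by hand, and the rows by their p in this same comparison. The split into blocks therefore follows from the selection and is no result.

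Of 64 tested probe sets of chromatin genes 4 were counted for LSP (6.25% against 3.18% of all) and 0 for USP, with a median of 0.013. The sides turned without USP sample Z, to 3 for LSP and 6 for USP, and on the arrays with negative values, to 2 and 4. Besides Tlk2 these were Kdm3a, a histone H3 lysine demethylase, with 9.50, 9.68 and 9.64 in LSP and 7, 8.17 and 7 in USP (4.65-fold, adjusted p = 0.379), Smarca4, the ATPase of the SWI/SNF complex, and Pcgf2, a Polycomb protein. Smarca4 had 10.83, 10.82 and 10.67 against 10.38, 9.05 and 8.67 (2.65-fold, adjusted p = 0.641) and Pcgf2 8.44, 7.93 and 8.47 against 7.54, 8.05 and 7. The second probe set of Pcgf2 differed by 0.0015. Kdm3a and Smarca4 were even across the LSP samples and varied across the USP samples.

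Ubiquitin conjugation was the list with the most probe sets counted for LSP, 7 of 73 tested (9.59%) against 1 for USP, with a median of 0.119. Smaller lists had higher LSP shares. These were immediate early genes (16%), sex-linked genes (14.3%, 1 of 7), protein tyrosine phosphatases (13%) and TGF-beta and BMP genes (10%). Fbxo6, an F-box protein of glycoprotein degradation, was counted with both of its probe sets, at 7.85, 7.52 and 7.95 against the floor in all USP samples (adjusted p = 0.141) and with a log2 difference of 2.01 (adjusted p = 0.825). Cul3, the scaffold of a ligase family, had 9.68, 10.69 and 9.36 in LSP and 7, 9.44 and 7 in USP (adjusted p = 0.709). The E2 enzymes Ube2d2a and Ube2k differed by 0.92 and 1.03. On the arrays with negative values alone 1 probe set of this list was counted for LSP, and without LSP sample A 13 were, so the count is not steady.

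Of 25 tested probe sets of immediate early genes, 4 were counted for LSP (16%) and 1 for USP, with a median of 0.025. Both probe sets of Nr4a2, an orphan nuclear receptor, were among them, with 8.80, 8.23 and 7.07 against the floor in all USP samples and 8.44, 10.76 and 8.35 against 7, 7 and 7.38 (adjusted p = 0.802 and 0.584). Klf9 had 7.14, 9.25 and 8.84 in LSP and lay at the floor in USP, and Dusp1, a phosphatase of MAP kinases, differed by 1.33. Klf2, a factor of quiescence in T cells and vessels, was the one counted for USP, with 7, 7.17 and 7 in LSP and 7.97, 8.63 and 8.79 in USP (adjusted p = 0.660). Jun, Fosb and Egr1 differed by -1.22, 1.07 and 0.70, with overlapping samples. Leaving out LSP sample B or USP sample O left 1 probe set counted for LSP.

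Of 81 tested probe sets of coenzyme Q and oxidative phosphorylation, 4 were counted for LSP (4.94%) and 1 for USP, with a median of 0.0. Without LSP sample M the counts were 2 and 1, without LSP sample A 5 and 3, and on the arrays with negative values 2 and 2. Next to Coq9, the complex I subunits Ndufb8 and Ndufb10 had 10.34, 11.20 and 11.84 against 10.23, 8.59 and 9.80 (adjusted p = 0.690) and 10.50, 10.73 and 11.20 against 10.25, 10.27 and 10.11 (adjusted p = 0.752). Cyc1, cytochrome c1 of complex III, had 9.52, 9.49 and 9.50 in LSP and 12.05, 10.85 and 11.21 in USP (3.64-fold, adjusted p = 0.141), and 12.04 in CD8 cells. The second probe set of Cyc1 stayed at or near the floor, with a difference of 0.053. Glycolysis genes had 1 probe set of 25 counted for LSP, of Pfkp, whose samples overlapped, and of 32 probe sets of antioxidant enzymes 0 were counted on either side. Gstm1, a glutathione transferase, had 11.20, 11.57 and 11.85 against 11.75, 11.44 and 11.39.

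Vesicle traffic genes were found on both sides, 6 of 88 probe sets for LSP and 3 for USP (6.82% and 3.41%, median 0.053). Without LSP sample A the counts were 7 and 5. Rabggta, a subunit of the enzyme that attaches lipids to Rab proteins, had 11.15, 9.76 and 10.28 in LSP and lay at the floor in USP (at least 10.5-fold, adjusted p = 0.324), while CD8 cells had 10.37. Ap1g1, the gamma subunit of the clathrin adaptor of the trans-Golgi, had 9.36, 9.95 and 11.53 against the floor in USP (at least 9.70-fold, adjusted p = 0.184). This was 1 of its 3 probe sets, and the others were at the floor on all ten-cell arrays. The related Ap1g2 had 11.52, 9.84 and 10.54 against 9.31, 7.15 and 7 (adjusted p = 0.568). Ap2m1, a subunit of the adaptor of the plasma membrane, lay on the other side with 8.49, 8.10 and 8.13 against 9.39, 10.00 and 9.87 (adjusted p = 0.275), but its second probe set differed by -0.55 and overlapped. Rab10os, an antisense transcript that entered the list by its name, differed by 2.44 (adjusted p = 0.269).

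Further lists had their medians on the LSP side, nuclear transport with 0.325 over 35 probe sets, TGF-beta and BMP with 0.303 over 20, and protein tyrosine phosphatases with 0.265 over 23. In this order, 1, 2 and 3 probe sets were counted for LSP (2.86%, 10% and 13%) and 0, 0 and 1 for USP. Xpo6, an export receptor, had 8.80, 9.02 and 10.00 in LSP and 7.26, 7.44 and 8.07 in USP (adjusted p = 0.403), the only one of its list counted. Smad4, the common mediator of TGF-beta signals, had 10.64, 10.35 and 9.72 against 9.54, 9.14 and 7.79 (adjusted p = 0.707), and Twsg1, which binds BMPs, was at the floor in USP and at 7.80, 7.35 and 8.21 in LSP. Ptprv differed by 2.11 with 1 of 3 probe sets, and Ptpn23 by -1.35. Ptprcap, which entered the phosphatase list by its name, binds the phosphatase CD45 and is none itself; it had 9.74, 10.19 and 10.84 against 9.35, 8.66 and 7.87 (adjusted p = 0.461). Itgav, an integrin chain of the adhesion list, had 10.79, 10.00 and 10.65 against 9.64, 7.49 and 7.40 (adjusted p = 0.413), while its other probe sets differed by 1.39 and 0.69.

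Other lists had few probe sets counted, and their shares are given for LSP and for USP, beside 3.18% and 2.81% of all. Of 114 probe sets of splicing and RNA-binding genes 5 and 4 were counted (4.39% and 3.51%), and of 104 of zinc finger factors 6 and 5 (5.77% and 4.81%). Of 53 of translation factors 2 and 0 were counted (3.77% and 0%), and of 47 of the proteasome 1 and 1 (2.13% each). Of 50 of chaperones 1 and 1 were counted (2% each), and of 30 of ribosomal proteins 1 and 0 (3.33% and 0%). Signalling lists had 2 and 0 of 36 probe sets of MAP kinase cascades (5.56% and 0%) and 2 and 1 of 29 of the Wnt and Notch pathways (6.9% and 3.45%). For JAK, STAT and SOCS genes the counts were 1 and 0 of 25 (4% and 0%). Interferon-induced genes had 0 and 2 of 31 (6.45% for USP), among them Irf1, with a difference of -1.41 (adjusted p = 0.760). DNA repair genes had 0 and 1 of 45 (2.22% for USP), the base excision enzyme Apex1, with -2.41 (adjusted p = 0.716). The zinc finger genes included Zbtb14, at 9.17, 9.29 and 10.91 in LSP and at the floor in USP (at least 6.92-fold, adjusted p = 0.139), Zfp326, with 7.93, 7.22 and 7 against 8.96, 8.86 and 10.18 (adjusted p = 0.267), and Zfp467, at the floor in LSP. Ddx54, an RNA helicase, differed by 3.01 (adjusted p = 0.413), Hnrnpll, a splicing regulator, by -2.88 (adjusted p = 0.568), and the translation factor Eif3d by 0.98 (adjusted p = 0.390).

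**Figure D5:**
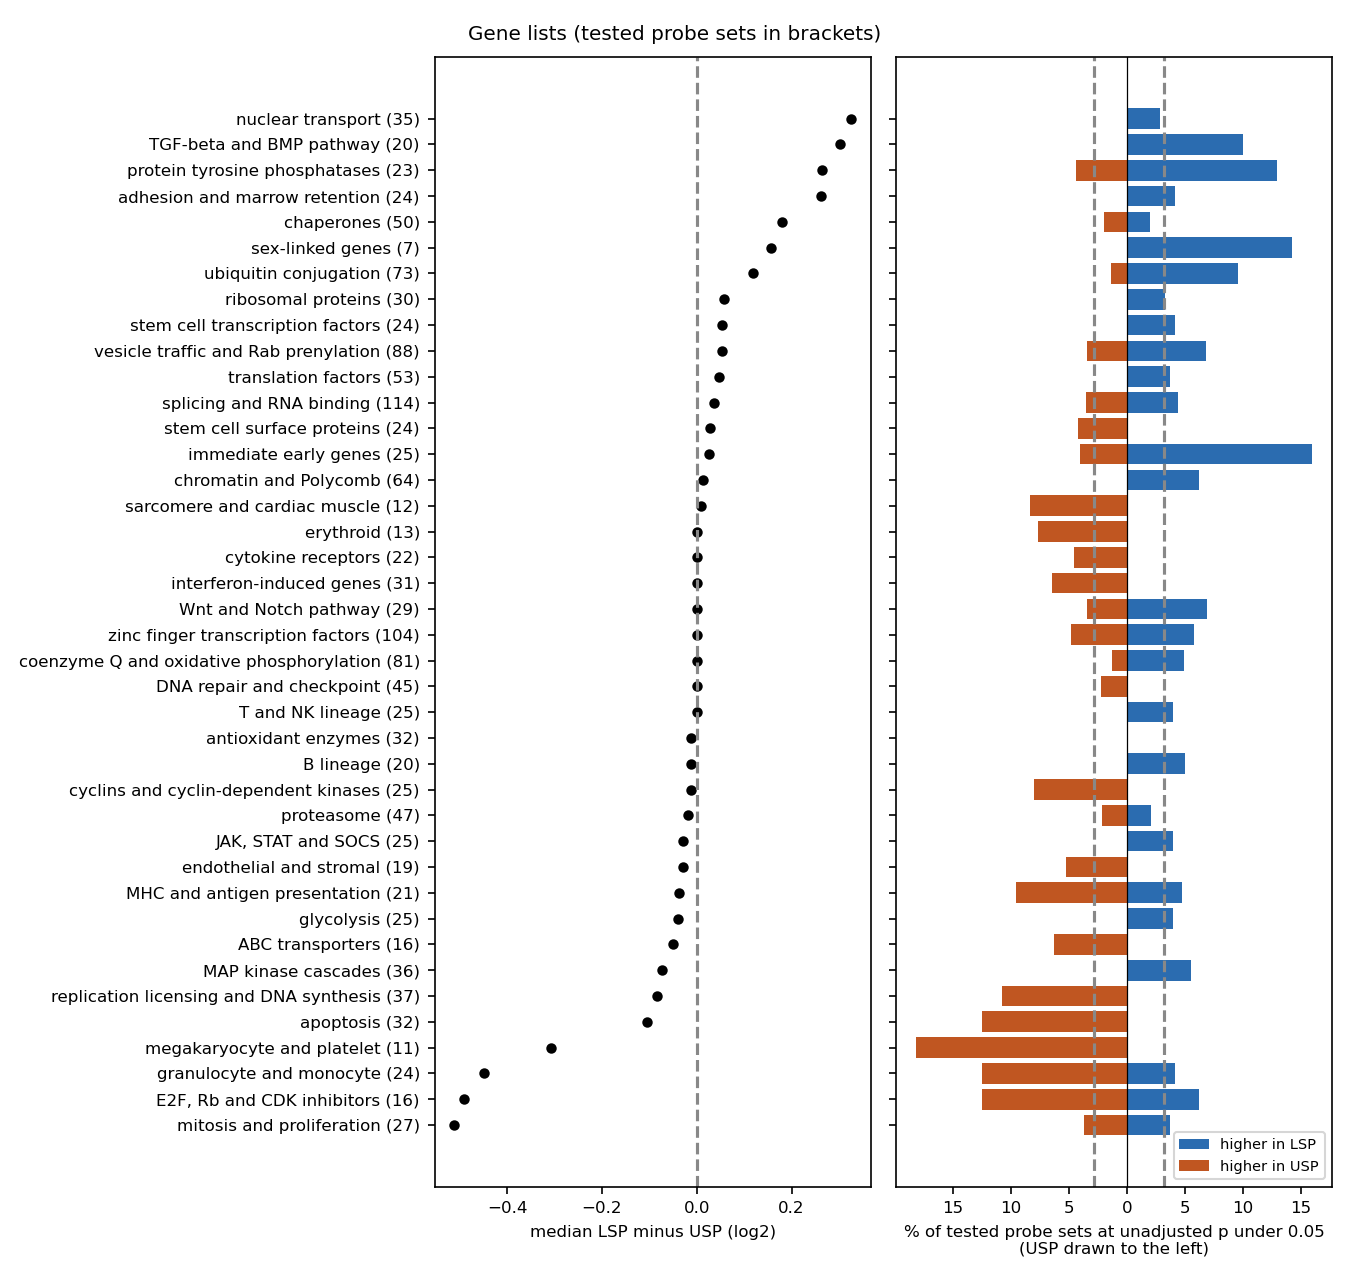
Median LSP minus USP log2 difference (left) and percentage of tested probe sets with an unadjusted p under 0.05 on each side (right; blue for LSP, orange for USP) of 40 gene lists (rows, with the number of tested probe sets in brackets); dashed lines are the values of all probe sets tested. Mitosis (-0.511), E2F (-0.491) and granulocyte (-0.448) lists lie lowest and nuclear transport (0.325) highest, and 32 of 40 medians lie within 0.2 of 0.

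Outside the lists, the largest differences with no overlap were those of Gdap2 and Tpm3 on the LSP side and Ccl9, Taf6, Gba2 and Ssbp4 on the USP side. Tpm3, a tropomyosin of the cytoskeleton, had 10.49, 9.88 and 10.33 in LSP and 7, 7 and 7.34 in USP (8.69-fold, adjusted p = 0.0581), but its second probe set overlapped, with a difference of 0.45. Ssbp4, which binds single-stranded DNA, had 7, 7.37 and 7 against 9.78, 10.00 and 10.28 (7.45-fold, adjusted p = 0.0581). A second probe set of Ssbp4 differed by -2.10 (adjusted p = 0.211), and the third by -1.0, mainly through USP sample N. Ccl9, a chemokine of myeloid cells, was at the floor in LSP and had 11.18, 11.75 and 7.17 in USP, so that sample Z barely left the floor (adjusted p = 0.757). Taf6, a subunit of the general factor TFIID, had 8.01, 10.42 and 7 against 11.44, 12.26 and 10.63, and Gba2, a glucosylceramidase, 8.32, 9.49 and 7 against 10.23, 11.05 and 12.39 (adjusted p = 0.606 and 0.709). Of the remaining LSP side, Gdap2, Tab2, Wbp1l, Pard6a and Trappc10 differed by 2.69 to 3.23, with adjusted p from 0.542 to 0.779. On the USP side Colgalt1, Clcn4, Spast and Lamtor4 differed by -2.81 to -2.73, with adjusted p from 0.324 to 0.709. The second probe set of Spast differed by 0.0016, and that of Clcn4 was at the floor in all SP samples. Trappc10 and Clcn4 are also among the genes that the study names.

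The genes that the study itself names for the 2 populations were chosen on these samples, so their counts are no independent evidence. The same holds for the counts of lists above that include such genes. Among them are Cdc7, Umps, E2f1, Ccna2, Casp4, Cd14, Cebpg, Hba-a1, Zfx, Tlk2, Kdm3a, Ap1g1 and Rabggta. Of the study's 14 tested probe sets for LSP, 13 were counted for LSP, and the exception, Ring1, was at the floor in all SP samples. Of its 20 for USP, 12 were counted for USP, and Cdc7 passed after adjustment. Socs2, a suppressor of cytokine signals on the LSP side, had 10.41, 8.49 and 11.85 against 7, 9.04 and 7 (adjusted p = 0.729), and overlapped. Pa2g4 and both probe sets of Sipa1, a regulator of Rap1 induced by signals, had differences of -1.66, -0.72 and -0.40, with Sipa1 at the floor in LSP and at most 8.33 in USP. A probe set that detects Ly6c1 and Ly6c2 had 7.17 ± 0.24 (SD, n = 3) in LSP and 8.0 ± 0.39 in USP (adjusted p = 0.529).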

How the data were processed

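Ten-cell pools were amplified by global single-cell RT-PCR and hybridised to MG-U74Av2 arrays. The authors deposited 1 table of signal intensities on a linear scale, each array with a trimmed mean near 250 (2% cut at each end), with negative values on 9 of the 12 SP arrays. These are not the logged RMA levels that the methods describe, and their software is not given in the sources used here. Array controls (66 of 12488 probe sets) were dropped, and the annotation assigned 10833 of the remaining 12422 to a single gene. Intensities were logged (log2), raised to the floor of 7 where below it, and averaged over the 2 arrays of a sample. Probe sets that left the floor on any of the 18 ten-cell arrays (6823) entered 1 model in limma 3.58.1 (R 4.3.3), with 1 mean each for LSP, USP and CD8 samples and a spread shared by all 9 samples, and p-values were adjusted by Benjamini-Hochberg. Intervals are 95% limits from that fit. A probe set not tested was at the floor on all 18 arrays. It held for all but 1 probe set of Tlk2, Ap1g1, Bcl2l11, Vwf, Pafah2, Zbtb14, Klf9, Smarca4, Tap1, Ndufb10, Gstm1 and Pa2g4. A fold against a population at the floor is a lower bound on this scale. The number of arrays limits the precision. The fit was run on simulated data without a floor, which does not cover genes with a population at the floor. Other steps used Python 3.11.15, scipy 1.17.1 and pandas 2.3.3.

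The gene lists and their members were chosen with earlier results of these data known, whereas the samples compared were taken by their labels. The genes named are Tlk2, Ptpn21, Tnni3 and Cdc7, those with an adjusted p under 0.05, the 12 largest differences on each side with an unadjusted p under 0.05 and no overlap, up to 4 genes of each list with an unadjusted p under 0.05 (else its 2 highest genes), and the study's own named genes. The other genes were named after their values were seen. Promoters come from RefSeq. Alternatives covered the samples and arrays fitted, the floor, the filter, the averaging, the scaling and a t-test.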

Additional observations from a re-analysis of the deposited data

How the results depend on the processing

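Of the 2 probe sets higher in LSP and 5 higher in USP, how many passed depended on the setting. None passed on either side without the CD8 samples, on the arrays with negative values alone, or by the methods' t-test after adjustment (0 and 0 each), where 133, 125 and 90 probe sets for LSP and 134, 188 and 95 for USP had an unadjusted p under 0.05. A filter on a mean level of at least 8 left 0 and 1 (124 and 117 unadjusted), a floor of 6 in log2 1 and 7, no filter 1 and 4, and median centring 1 and 3. The arrays with negative values leave out USP sample Z and all CD8 samples. With all 18 arrays and the sample as a random effect 14 and 17 passed (287 and 291 unadjusted), of which 4 were among the 7. The array numbers mark duplicates of 1 pool and pair nothing, and with them as a replicate block 11 and 16 passed. Leaving out 1 sample at a time gave 0 to 21 for LSP and 0 to 18 for USP, highest without LSP sample B and without USP sample Z. Leaving out any 1 of the CD8 samples lost all 7, and the 1 probe set that passed for LSP without CD8 sample D was not among them. The unadjusted counts were 156 to 275 and 151 to 269. Of the named genes recomputed, 7 with differences near 0 changed sign. On the arrays with negative values alone Abcg2 came to 0.46, Procr to 0.27, Gp1bb to 0.010 and Gstm1 to -0.053, and Gstm1 came to -0.014 with median centring. Leaving out 1 sample at a time moved the log2 difference of Abcg2 between -0.54 and 0.51, of Procr between -0.79 and 0.20 and of Gp1bb between -0.47 and 0.010. It moved Gstm1 between -0.15 and 0.18, Nfe2 between -0.21 and 0.0076, Adgrg1 between -0.1204 and 0.39 and Cd24a between -0.068 and 0.42. Tlk2 and the 7 probe sets that passed the adjusted threshold kept their sign in each setting run. Second probe sets and genes given only for comparison were not recomputed. The list counts without a sample and on the arrays with negative values were added after seeing the data. Leaving out 1 sample moved a count on either side by over 1.5 times, from 0 to 1 included, in 39 of 40 lists.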
